A study of Mus musculus with 35 samples.

Results

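Cck, Sct, Gcg, Pyy and Nts encode peptide hormones of the gut, and these 5 genes, of 23538 in the count tables, were followed through every well of the study by name, whatever their values. The study measured mRNA of single mouse small intestinal cells by CEL-seq, which tags each molecule at its 3' end with a well barcode and a random barcode. A single cell was sorted into each of 1680 wells on 18 plates, of which 1209 wells held at least 1500 gene counts and were kept. Organoids are epithelial structures that grow in culture from intestinal stem cells and make their daughter cell types.

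Whole organoids, grown from a wild-type C57BL/6 mouse, gave 485 kept wells in 2 replicates. Cells positive for the dsRed reporter knocked into the Reg4 locus were sorted from Reg4-dsRed-knock-in organoids and gave 156 kept wells in 2 replicates. GFP-positive cells of Lgr5-GFP-DTR organoids gave 74 kept wells in 1 replicate. All 3 cultures were kept with the growth factor EGF, the Wnt enhancer Rspo1 and the BMP inhibitor Noggin. Each organoid group came from 1 mouse, and its replicates were passages of that culture. Taken straight from the intestine were Lgr5-EGFP cells (159 kept wells on 2 plates) and YFP cells (335 kept wells on 5 plates). The YFP cells came from mice in which Cre expressed from the Lgr5 locus removes a loxP-flanked block before YFP in Rosa26, so that stem cells and their progeny carry YFP, and were collected 5 days after labelling. Ages and the separate animals behind the plates were not used here, so p-values measure the spread between these passages and plates, which may be technical.

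Kept wells summed to between 287001 and 2860636 counts a replicate, with a median of 4608 to 13131.5 counts per well. Levels below are CPM, that is counts per 1000000, with all gene counts in the kept wells of a replicate as the total. Reg4 itself had 2279 and 7465 CPM in the replicates sorted for it, 1320 and 104 in whole organoids, and this difference did not pass edgeR's quasi-likelihood test (adjusted p = 0.185). Lgr5 stood at 280.6 CPM in the Lgr5-positive organoid library against 26.6 and 61.8 in whole organoids. The 18 enteroendocrine markers summed to 5830 and 21268 CPM in the Reg4-positive replicates and to 2504 and 38.6 in whole organoids. They include the 5 hormones, Tac1 and Tph1, and the 5 hormones alone summed to 676 and 1134 CPM in the Reg4-positive replicates. The same Reg4-positive replicates also held all 8 Paneth cell markers, at a sum of 125452 and 43302 CPM against 351 and 5534 in whole organoids, and all 7 goblet cell markers, at 19668 and 7565 against 749 and 4222. All 6 immune markers were at 0 in both Reg4-positive replicates. The part of these other cell types in the results below was not tested.

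Gut hormone cells, called enteroendocrine cells, are rare secretory cells of the epithelium that arise from the same Lgr5-positive stem cells as their neighbours. Cck encodes cholecystokinin, released when fat and protein enter the duodenum, which contracts the gallbladder and drives pancreatic enzyme secretion. Sct encodes secretin, which stimulates bicarbonate secretion from the pancreas and bile ducts. Gcg encodes proglucagon, cut in intestinal L cells to the glucagon-like peptides. Pyy encodes peptide YY, an inhibitor of gut motility and appetite that L cells of the distal gut release with those peptides, and Nts encodes neurotensin. Cells rich in Tac1, which encodes substance P, and Tph1, the enzyme that makes gut serotonin, are known as enterochromaffin cells and are the most common hormone cell of the gut.

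All 5 genes lie on the minus strand of the mouse genome (GRCm38, GENCODE M21), and no other annotated gene overlaps any of them. Cck spans chr9:121489824-121495694, Sct chr7:141278330-141279133, Gcg chr2:62474530-62483650, Pyy chr11:102106676-102107832 and Nts chr10:102481756-102490486. The 180 bases before each annotated start are shown because these genes were counted in some of the same wells, and because basic helix-loop-helix factors of hormone cells such as Neurod1 bind E-boxes. They were read 5' to 3' on the minus strand from the RefSeq promoter table (GRCm38.p6), and all 5 genes matched it. Capitals mark each match, on either strand, to the E-box CANNTG, the TATA box TATAAA and the GC box GGGCGG. The windows are chr9:121495695-121495874 for Cck, chr7:141279134-141279313 for Sct, chr2:62483654-62483833 for Gcg, chr11:102107833-102108012 for Pyy and chr10:102490487-102490666 for Nts.
Cck: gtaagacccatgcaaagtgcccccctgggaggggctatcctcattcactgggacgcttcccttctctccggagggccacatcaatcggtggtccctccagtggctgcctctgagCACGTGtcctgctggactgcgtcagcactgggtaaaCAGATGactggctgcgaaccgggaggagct
Sct: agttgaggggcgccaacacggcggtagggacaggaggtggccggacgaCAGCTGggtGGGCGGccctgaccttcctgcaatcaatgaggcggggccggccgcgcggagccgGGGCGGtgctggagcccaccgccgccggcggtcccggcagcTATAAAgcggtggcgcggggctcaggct
Gcg: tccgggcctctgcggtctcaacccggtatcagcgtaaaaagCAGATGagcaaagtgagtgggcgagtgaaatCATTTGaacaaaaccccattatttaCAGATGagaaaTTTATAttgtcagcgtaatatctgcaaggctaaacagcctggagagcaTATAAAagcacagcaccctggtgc
Pyy: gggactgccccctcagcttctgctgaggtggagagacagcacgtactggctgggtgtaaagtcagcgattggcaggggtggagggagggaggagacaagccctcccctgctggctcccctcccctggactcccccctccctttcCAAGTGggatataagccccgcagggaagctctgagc
Nts: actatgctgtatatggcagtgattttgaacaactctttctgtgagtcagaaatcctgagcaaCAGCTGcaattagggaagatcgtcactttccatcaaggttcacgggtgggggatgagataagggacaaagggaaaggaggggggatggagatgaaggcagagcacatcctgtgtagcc

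Each of the 5 windows held at least 1 CANNTG, which is also true of 53.8% of the 27018 RefSeq promoters over the same number of bases. The form CAGATG, itself a CANNTG, occurred once before Cck and at 2 places before Gcg, against 10.5% of all promoters with at least 1. TATAAA occurred before Sct and Gcg (9.46% of all promoters) and GGGCGG before Sct (30.5%). TATATA and TGACGTCA, the cyclic AMP response element, were searched too and were in none of the 5 windows. The GENCODE start of Nts lies 68 bases upstream of the RefSeq start, and its window ends at the former. These matches are letters in a short window and were not related to any value below.

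Cck was counted most in Reg4-positive organoid cells. Its level was 573 and 594 CPM in the 2 Reg4-positive replicates, 13.6 and 0 in whole organoids, 0 in the Lgr5-positive organoid library, 0 and 20.7 in Lgr5-EGFP cells, and 1.32, 33.5, 0, 13.9 and 131 on the YFP plates. In order of the mean, Reg4-positive cells (583 ± 14.3, SD, n = 2) were followed by YFP cells (35.9 ± 54.8, n = 5), Lgr5-EGFP cells (10.3 ± 14.6, n = 2), whole organoids (6.82 ± 9.64, n = 2) and Lgr5-positive organoid cells. In Reg4-positive replicate 2, 3 wells above 100000 counts held 49.3% of the counts but 8 of the 639 Cck counts, and without them its level was 1156 CPM and the group mean 865 ± 412. The Reg4-positive replicates did not overlap any other library, while every neighbouring pair further down the order overlapped or differed by less than its spread. In a sum over wells, fewer cells of a type and less RNA per cell cannot be told apart.

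Sct was the only one of the 5 genes counted in all 12 libraries. Its level was 103 and 105 CPM in Reg4-positive cells, 16.8 and 5.15 in whole organoids, 3.31 in Lgr5-positive organoid cells, 56.0 and 73.6 in Lgr5-EGFP cells and 30.4, 75.6, 9.41, 20.9 and 59.1 on the YFP plates. The order of the means was Reg4-positive organoid (104 ± 1.42, n = 2), Lgr5-EGFP (64.8 ± 12.4, n = 2), YFP (39.1 ± 27.5, n = 5), whole organoid (11.0 ± 8.22, n = 2) and Lgr5-positive organoid. Without the same 3 wells, which held 3 of its 113 Sct counts, Reg4-positive replicate 2 stood at 202 CPM and the group mean was 152 ± 69.7. Lgr5-EGFP and YFP libraries overlapped, as did YFP and whole organoid libraries, and the Lgr5-positive organoid library lay within 1 SD of the whole organoid mean.

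Gcg, Pyy and Nts were each found in few libraries. Gcg was counted at 188 CPM in Reg4-positive replicate 2 and at 432 on Lgr5-EGFP plate 2, with a single count in whole organoid replicate 1 and none in the other 9 libraries. Without the 3 wells above 100000 counts, the levels of Gcg and Nts in Reg4-positive replicate 2 were 365 and 478 CPM. Pyy was counted on Lgr5-EGFP plate 2 alone, at 276 CPM. Nts was counted in Reg4-positive replicate 2, at 248 CPM, and on YFP plate 5, at 267. A count of 0 allows Pyy a level of up to 0.680 CPM in whole organoids and 1.91 in Reg4-positive cells, or up to 0.619% and 1.92% of wells with a count. It allows Gcg up to 0.963 CPM in YFP cells. These limits and the intervals below cover counting error only.

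**Figure D1:**
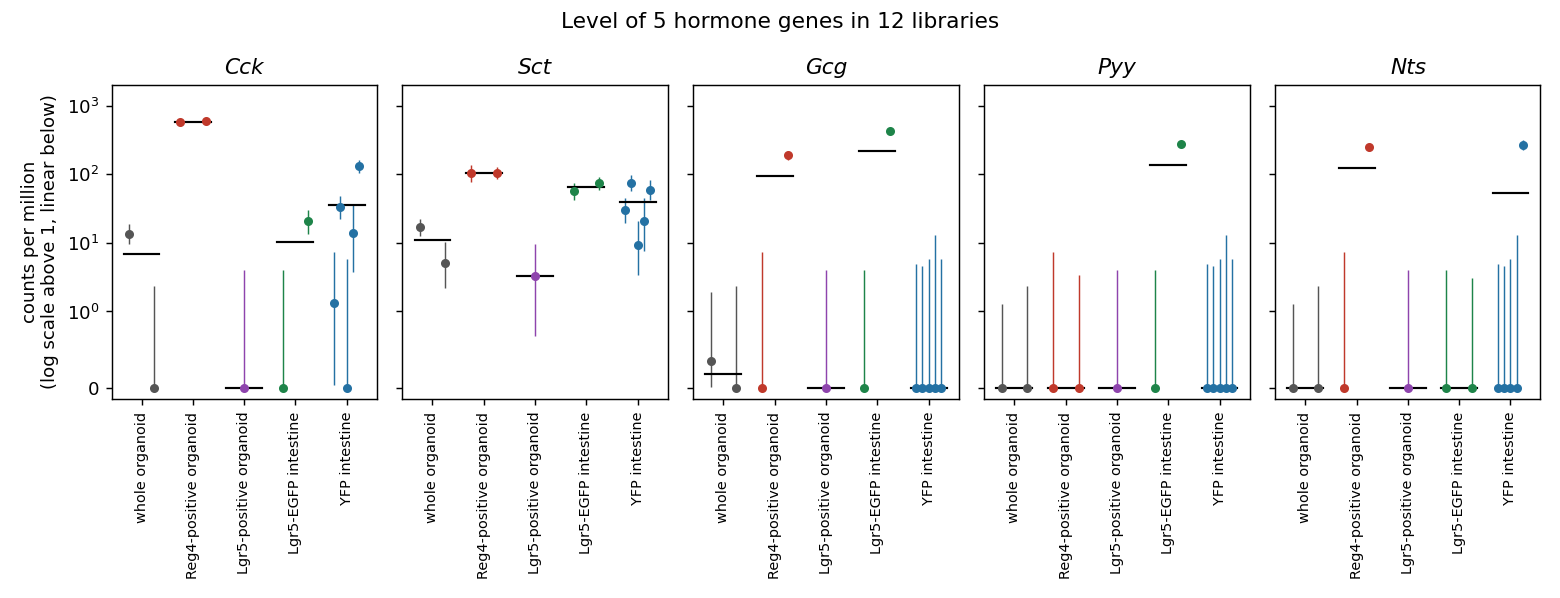
CPM (y axis, logarithmic above 1 and linear below) of the 5 hormone genes in each of 12 libraries, by group (x axis). Points are replicates with exact 95% Poisson intervals and black lines are group means. Both Reg4-positive points for Cck (573 and 594) lie above all others, and Gcg, Pyy and Nts are at 0 in most libraries.

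Levels of a library rested on very few wells. Of the 1209 kept wells, 183 held at least 1 count of any of the 5 genes, and 13 held at least 10 counts of 1 of them. Those 13 wells are called rich here, and they lay on 8 plates of 7 libraries. Cck was counted in 45 wells, 8 of them rich, and the rich wells held 92.8% of its 1101 counts. Gcg was counted in 23 wells, but 96.4% of its 725 counts came from 2 of them, with 190 and 509 counts. The 2 rich wells of Pyy (72 and 256 counts) held 98.2% of its counts, and those of Nts (160 and 248 counts) 94.0%. Sct was spread more widely, over 133 wells, and its 10 rich wells held 53.5% of 497 counts.

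No well fell between these levels for 4 of the genes. Among wells with under 10 counts the highest Cck count was 6, and the lowest rich well had 19. The same steps ran from 3 to 190 for Gcg, from 1 to 72 for Pyy and from 4 to 160 for Nts, but from 8 to 12 for Sct. In most wells with one of the genes the count was 1 to 3: this held for 30 of 45 Cck wells, 111 of 133 Sct wells, 21 of 23 Gcg wells, 6 of 8 Pyy wells and 16 of 19 Nts wells. Tac1 also had 1 to 3 counts in 91 of its 172 wells. It differed in that 68 of the 172 had at least 10 counts, with no step between 9 and 10.

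**Figure D2:**
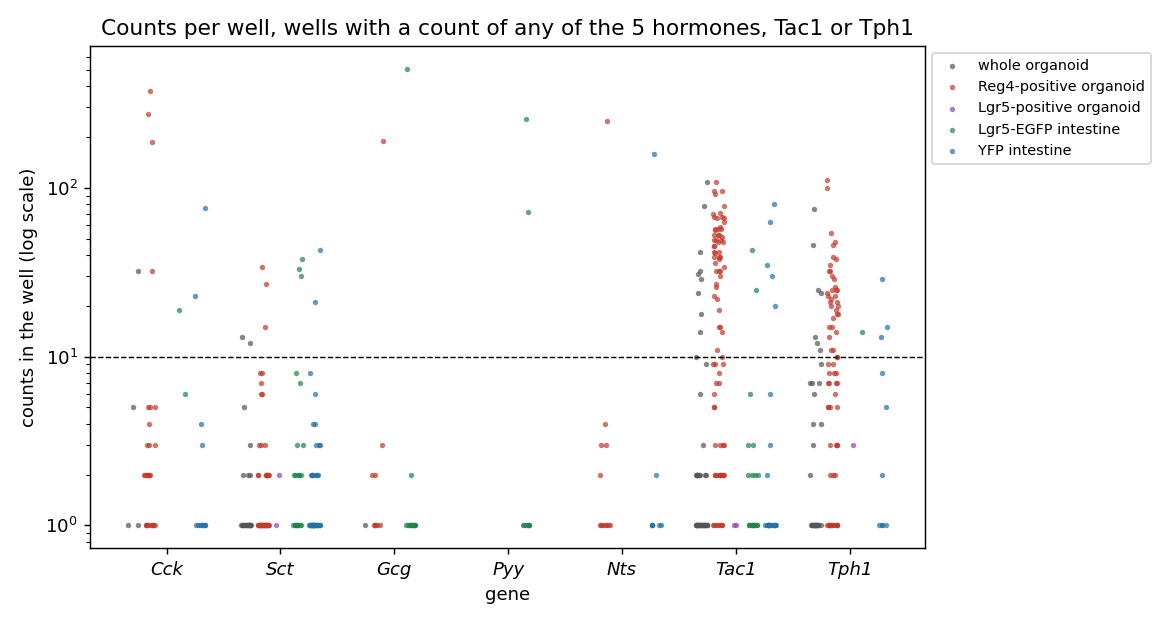
Counts in single wells (y axis, logarithmic) for the 5 hormone genes, Tac1 and Tph1 (x axis). Each point is a kept well with a count, coloured by group, and the dashed line marks 10 counts. Gcg, Pyy and Nts each have 2 points above the line and the rest at 4 counts or fewer, whereas 68 Tac1 points lie on or above it.

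Wells with 1 to 9 counts were found mostly on plates that also held a rich well. For Gcg, 20 of the 156 kept wells on such plates had 1 to 9 counts, against 1 of 1053 wells on the remaining plates. The shares were 12.1% against 0% of 1069 wells for Nts, 7.14% against 0% of 1125 wells for Pyy, 7.02% against 0.541% for Cck and 14.1% against 5.80% for Sct. On plate 2 of Reg4-positive replicate 2, wells with 1 to 9 Nts counts lay in 4 of the 44 kept wells numbered 1 to 48 and in 7 of the 28 numbered 49 to 96, and the rich well was among the latter. In the same 2 sets of wells the numbers were 8 and 10 for Cck, 5 and 3 for Gcg and 18 and 8 for Sct. The rich wells of Cck and Gcg were also among wells 49 to 96, and Sct had 1 in each set. Whether RNA from the rich wells was counted in other wells of their plate was not tested.

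Granins, the acidic proteins of hormone granules encoded by Chga and Chgb, are carried by most hormone cells, so wells were divided by a count of either. In Reg4-positive organoids, 80 of the 81 wells of replicate 2 had a granin count, so the split was read within replicate 1. There Cck was counted in 5 of 30 wells with Chga or Chgb and in 0 of 45 without, and Sct in 9 of 30 and 6 of 45. Nts and Gcg had 0 counts in replicate 1. In replicate 2, the wells with a granin held Cck in 22 of 80, Sct in 31, Nts in 12 and Gcg in 9. In Lgr5-EGFP cells, Sct was counted in 5 of 18 wells with a granin and 16 of 141 without, and Gcg in 5 of 18 and 8 of 141, where the median depths were 17201.5 and 10522 counts. This split pools 2 unlike plates. All 13 Gcg wells were on plate 2, where granin and processing genes summed to 409 CPM, against 23.7 on plate 1. Granin and plate thus cannot be told apart there. In YFP cells Sct was counted in 17 of 81 wells with a granin and 23 of 254 without, at median depths of 9064 and 6534. That split pools 5 plates. Wells without a granin give the share of wells with a count outside granin-positive wells, and for Sct it was above 0 in every group named here. These counts were not all low: 1 such Lgr5-EGFP well held 30 Sct counts.

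The wells that held 2 or more of the 5 hormones numbered 33, and 11 of them were rich in at least 1. Among the 13 rich wells, 8 were rich in 2 or 3 of the 5 genes at once. Cck and Sct were rich together in 5 wells, 3 of them with no further hormone of the 5 at that level. Cck and Nts were rich together in both wells that were rich in Nts, and Sct and Pyy in both wells that were rich in Pyy. Gcg was rich once with Cck and once with Sct and Pyy. No well was rich in Nts together with Gcg or Pyy. With so few wells these are counts of single cells, and no test over wells was made. No search for wells with 2 cells was made either, and the part of such wells was not tested.

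The 2 Nts wells came from different groups. The Reg4-positive well (replicate 2, plate 2, well 84) held 248 Nts and 188 Cck counts with 74 of Ghrl, the ghrelin gene. The YFP well (plate 5, well 77) held 160 Nts, 76 Cck and 21 Sct counts and none of Ghrl. Both had low Chga (2 counts in each) and moderate Chgb (22 and 36 counts). Nts stood beside Cck in both wells.

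Gcg was rich in 1 Reg4-positive organoid well and 1 Lgr5-EGFP well, so culture, sort and the single cell cannot be told apart. The Reg4-positive well 68 held 190 Gcg and 32 Cck counts, no Sct or Pyy, and 130 counts of Reg4. Well 81 of Lgr5-EGFP plate 2 held 509 Gcg, 256 Pyy, 38 Sct and 6 Cck counts, with 21 of Insl5, a hormone of distal L cells. Well 73 of the same plate held 72 Pyy, 33 Sct, 19 Cck and 2 Gcg counts and 13 of Isl1, a LIM-homeodomain factor of endocrine cells. Wells 81 and 73 had 1 Chga count each, 2 and 7 Chgb counts, and 2 and 3 counts of Lgr5.

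The other wells rich in Cck held Ghrl, Gip or Tac1. Well 83 of Reg4-positive replicate 1 held 276 Cck and 585 Ghrl counts, and well 91 of replicate 2 held 376 Cck, 102 Ghrl and 27 Sct counts. Well 95 of YFP plate 2 held 23 Cck and 43 Sct counts with 262 of Gip, the glucose-dependent insulinotropic peptide gene of K cells. In whole organoids, well 23 on plate 2 of replicate 1 was the single kept well with at least 10 counts of both Cck and Tac1, with 32 Cck, 12 Sct, 78 Tac1, 25 Tph1, 238 Chga and 1138 Reg4 counts. Ghrl was at 0 in the 4 rich wells of Cck outside Reg4-positive cells, and also in the Reg4-positive well 68.

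Rich wells of Sct included cells with few other hormone genes. Well 75 of Lgr5-EGFP plate 1 held 30 Sct counts with 0 of Chga, Chgb, Cpe and Neurod1, beside 576 counts of Lyz1, the Paneth cell lysozyme, and 248 of Muc2, the goblet cell mucin. Well 38 of Reg4-positive replicate 1 held 34 Sct, 3 Cck and 25 Chgb counts in a total of 1543. Well 40 of Reg4-positive replicate 2 held 15 Sct counts with 34 Tac1, 38 Tph1, 42 Ghrl and 445 Chgb counts. Well 52 of whole organoid plate 1, replicate 1, held 13 Sct, 5 Cck and 24 Chgb counts with 10 of Neurog3, the factor that starts the hormone cell fate, and with 1604 counts of the 8 enterocyte markers in a total of 64305.

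**Figure D3:**
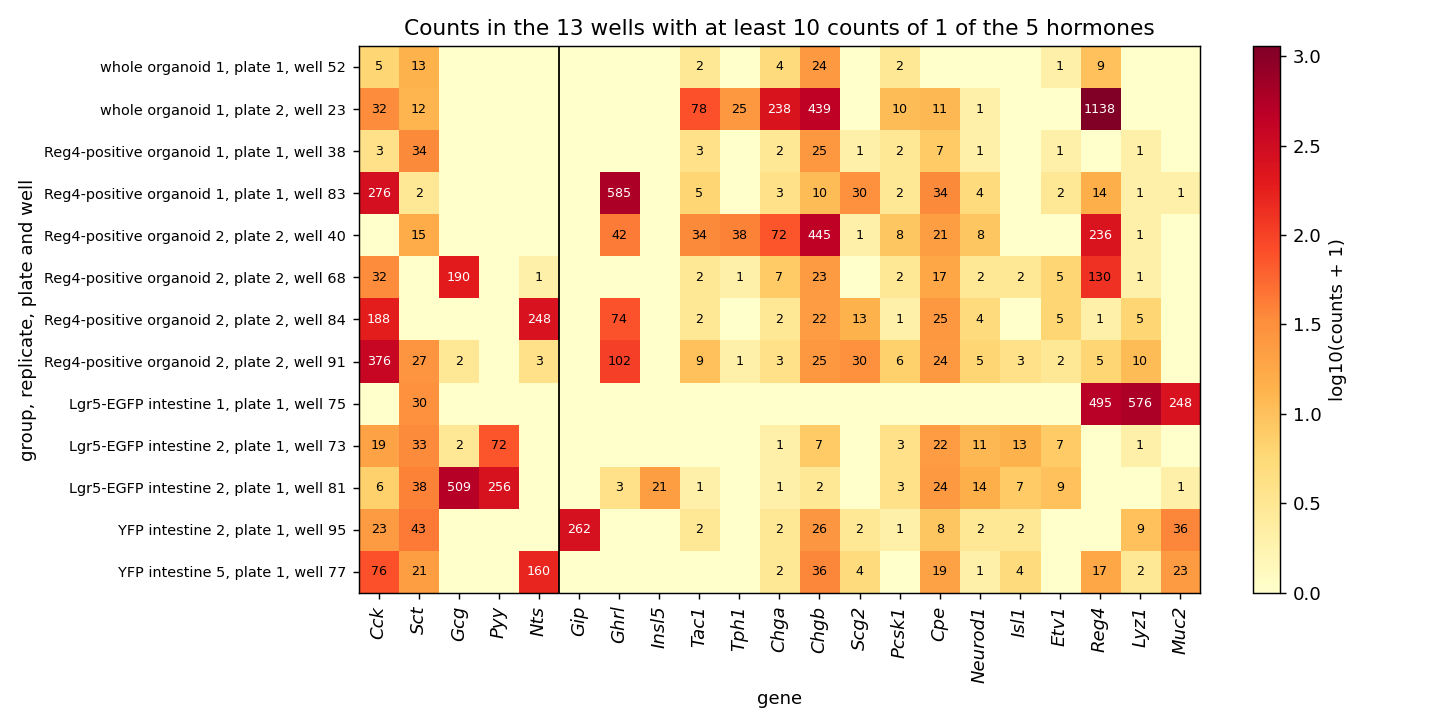
Counts of the 5 hormones (left of the line) and of other hormone cell, sort and cell type genes (x axis) in the 13 wells with at least 10 counts of 1 of the 5 (y axis), coloured by log10(counts + 1), with blank cells at 0. Nts sits with Cck in 2 wells, Pyy with Sct in 2 wells, and high Tac1, Tph1 and Chga together in the whole organoid well 23 and the Reg4-positive well 40.

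Taking every well with at least 1 count, pairs were more common, and the smaller count of the pair was 1 to 3 in 42 of 61 pairs and 1 in 22. Cck and Sct shared 20 wells, which is 44.4% of Cck wells and 15.0% of Sct wells, and 9.71% of wells without Cck held Sct. These shares pool libraries that differ widely: in Reg4-positive replicate 2, which held 22 of the 45 Cck wells, the order was the opposite, with Sct in 31.8% of Cck wells and 40.7% of wells without Cck. Cck and Nts shared 10 wells, or 52.6% of the 19 Nts wells, while 0.773% of wells without Cck held Nts. Within Reg4-positive replicate 2, Nts was in 31.8% of Cck wells and 8.47% of the others. The 7 wells that held both there included wells 20 and 42 of plate 2, with 179260 and 162627 counts in total. They also included the rich wells 68, 84 and 91, and depth was not held equal. Sct and Gcg shared 9 wells, Sct and Nts 6, Cck and Gcg 5, Gcg and Pyy 3, Gcg and Nts 3, Sct and Pyy 3, Cck and Pyy 2, and Pyy and Nts 0. At a minimum of 10 counts Cck and Sct shared 5 wells and Cck and Nts 2.

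With Tac1 the picture turned on the number of counts. At 1 count or more, 34 of 45 Cck wells, 14 of 19 Nts wells, 10 of 23 Gcg wells, 58 of 133 Sct wells and 1 of 8 Pyy wells also held Tac1. Many of these wells were in Reg4-positive replicate 2, where 73 of 81 wells held Tac1. There Tac1 was in 95.5% of Cck wells against 88.1% of wells without Cck, in 88.9% against 90.3% for Gcg, in 83.9% against 94.0% for Sct, and in 12 of 12 Nts wells against 88.4%. At 10 counts or more, 1 of 8 Cck wells and 2 of 10 Sct wells held it. It was in 0 of the 2 wells each of Gcg, Pyy and Nts. On Lgr5-EGFP plate 2, with both Pyy wells and 1 Gcg well, 1.22% of wells not rich in Pyy were rich in Tac1. On YFP plate 5, with 1 Nts well, 2.99% of wells not rich in Nts were, so 0 tells little on these plates. In Reg4-positive replicate 2 the share was 57.5% beside the single rich well of Gcg and beside that of Nts. There 0 of 3 Cck wells held Tac1 at that level against 58.97% of other wells, and 1 of 2 Sct wells against 56.96%. With Tph1 the numbers were 24 of 45, 11 of 19, 7 of 23, 43 of 133 and 0 of 8 at 1 count, and 1 of 8 Cck wells and 2 of 10 Sct wells at 10 counts. In Reg4-positive organoids, where 51 wells had at least 10 Tac1 counts, the highest Cck count among those wells was 5, and 14 of them held Cck at all. The 4 wells rich in Cck there had 2 to 9 Tac1 counts. The single well of that group rich in both Sct and Tac1 is well 40 above.

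**Figure D4:**
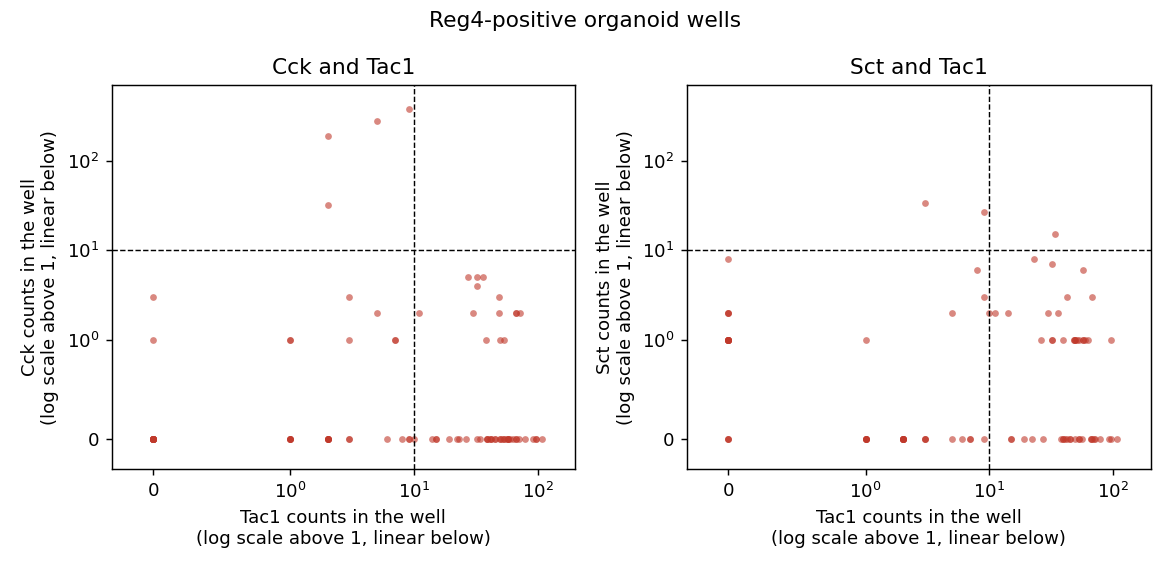
Counts of Cck (left) and Sct (right) on the y axis against Tac1 on the x axis in single Reg4-positive organoid wells with a count of any of the 5 hormones, Tac1 or Tph1, with both axes logarithmic above 1 and linear below. Dashed lines mark 10 counts. No well has 10 or more of both Cck and Tac1, and the 4 wells above the line for Cck have 2 to 9 Tac1 counts.

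Some genes of the machinery of hormone cells differed in median level between these wells and the enterochromaffin-type wells. Per 10000 counts of the well, Chga had a median of 5.83 in the 9 wells rich in Cck, Gcg, Pyy or Nts, against 123 in the 66 wells rich in Tac1 and in none of the 5. The ranges of Chga overlapped, at 0.632 to 231 and 0 to 314, and the highest of the 9 was whole organoid well 23. Chgb had a median of 20.6 against 446, and Pam 3.80 against 4.75. Cpe, the carboxypeptidase that trims prohormones, had 16.7 (range 2.66 to 73.0) against 6.84 (0 to 38.4), and Pcsk1, the main prohormone convertase of the gut, 2.92 against 6.34. Pcsk2, the other convertase, was at 0 in all of these wells. Isl1 was counted in 6 of the 9 wells and 1 of the 66, and Etv1 in 6 and 5. Depth per well differed among them, and the wells were chosen by hormone counts. Of all 68 wells with at least 10 Tac1 counts, 51 were Reg4-positive organoid wells. The 9 wells included whole organoid and intestinal cells. Cell type and library thus cannot be told apart, and these are descriptions with no test.

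Across the 1209 kept wells, the genes named by their Pearson correlation with each hormone on log2(counts per 10000 + 1) were mostly other genes of hormone cells. For Cck they were Scg2 (r = 0.70), Etv1 (0.67), Rbp4 (0.61) and Scgn (0.60). For Sct they were Cpe (0.58), Neurod1 (0.49), Ptprn2 (0.49), Pam (0.47) and Pax6 (0.46). For Gcg they were Map2 (0.67), Isl1 (0.56), Etv1 (0.56), Abcc8 (0.51) and Scgn (0.50), and for Nts they were Cck (0.57), Rbp4 (0.49), Scgn (0.48), Crybb1 (0.46) and Etv1 (0.44). Pyy was counted in too few wells. Among the named partners, Cck correlated at 0.31 with Tac1 and 0.19 with Tph1, and Sct at 0.42 and 0.38. Wells share libraries and plates, and values this sparse rest on few wells: without the top Gcg well, the r of Map2 with Gcg was 0.34, and without the top Nts well, that of Crybb1 with Nts was 0.17. In intestinal wells alone, the r of Etv1 with Nts was -0.01 and that of Cck with Nts 0.57.

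The sums over wells of Reg4-positive and whole organoids were compared with edgeR's quasi-likelihood test in 1 fit over the 3 organoid groups, with Benjamini-Hochberg adjustment over 10522 genes. Of these, 680 were called (6.46%): 252 rose (2.39%) and 428 fell (4.07%). Cck, Sct and Gcg were among those that rose, Nts missed the threshold and Pyy, with 0 counts, was not tested. The groups compared came from different mice and genotypes, so the sort cannot be told apart from mouse, genotype and culture. Cck had 923 counts in Reg4-positive and 39 in whole organoid wells, a 66.5-fold higher share of all counts (95% counting interval 48.2 to 94.1) with a log2 fold change of 6.19 (SE 0.94, adjusted p = 0.0153). Sct had 164 and 56 counts, an 8.22-fold higher share (6.04 to 11.3) with a log2 fold change of 3.12 (SE 0.51, adjusted p = 0.0178). For both, each Reg4-positive replicate was above each whole organoid replicate.

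Gcg and Nts were high in 1 Reg4-positive replicate of 2. Gcg had 202 counts against 1, a 567-fold higher share of all counts (95% counting interval 101 to 22516), and an edgeR adjusted p of 0.0394, but its Reg4-positive replicate 1 was at 0. Nts had 267 counts against 0 and was thereby at least 182-fold higher, from the 3 counts that a group at 0 allows, with an edgeR adjusted p of 0.0506. Tac1 (log2 fold change 3.94, adjusted p = 0.156) and Tph1 (3.47, adjusted p = 0.193) did not pass the edgeR test. The Tac1 level was 156 and 0.644 CPM in whole organoids, below the 545 and 2098 of Reg4-positive replicates (3970 in replicate 2 without its 3 wells above 100000 counts).

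The calls of Cck and Gcg rested on few wells. Without the 6 wells of the study that held at least 100 counts of 1 of the 5 genes, a choice made after seeing the data, the log2 fold change of Cck was 1.89 (edgeR adjusted p = 0.317), Gcg was no longer tested and Nts had an adjusted p of 0.146, whereas Sct kept 2.92 (adjusted p = 0.0187). DESeq2 gave adjusted p-values of 0.300 for Cck, 0.430 for Gcg, 0.253 for Nts and 0.00021 for Sct. Without the 3 wells above 100000 counts, Cck and Sct passed the edgeR test at log2 fold changes of 6.91 and 3.82 (adjusted p = 0.0320 and 0.0313), and Gcg did not (adjusted p = 0.0709). Leaving out Reg4-positive replicate 1 took Sct to an edgeR adjusted p of 0.0603 and Nts to 0.0102, and leaving out replicate 2 left 0 counts of Gcg and Nts in the group. Outside the rich wells, Cck stood at 10.2 and 40.6 CPM in Reg4-positive wells and at 0.718 and 0 in whole organoid wells, and Sct at 30.7 and 67.0 against 8.26 and 5.15.

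The share of wells with any of the 5 hormones was 21.3% and 65.4% in the Reg4-positive replicates and 6.88% and 3.35% in whole organoids. The groups did not overlap, with means of 43.4% ± 31.2 and 5.12% ± 2.50 (SD, n = 2 each). The two-sided exact permutation test gave p = 0.33, the smallest that 2 against 2 replicates allow. With each well thinned to 1500 counts the means were 21.3% and 1.86%, and at a minimum of 10 counts they were 3.80% and 0.362%.

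Other genes of hormone cells were read through lists, which stand beside the 5 members here and were chosen with earlier results of these data known. Of 11 granin and prohormone processing genes, 10 were tested and 4 rose, namely Scg2, Scg5, Pcsk1 and Pam, which makes the amidated end of cholecystokinin and secretin. Their median log2 fold change was 3.08, against 0.01 over all genes tested. Of 18 other gut hormones, 4 were tested and Ghrl rose, from 1.89 ± 1.77 to 738 ± 644 CPM (SD, n = 2 each, log2 fold change 8.39, edgeR adjusted p = 0.0108). Of 8 serotonin and enterochromaffin genes, all were tested and the vesicle transporters Slc18a1 and Slc18a2 rose, with a list median of 2.96. Of 20 transcription factors, 17 were tested and the pioneer factors Foxa1 and Foxa2 rose, with a median of 1.54.

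Of 13 receptors of the 5 hormones and Dpp4, the peptidase that inactivates glucagon-like peptides, 3 were tested and none was called by edgeR: Dpp4 stood at 81.9 ± 44.4 CPM in Reg4-positive and 56.1 ± 22.0 in whole organoid cells. Of 19 nutrient sensing and excitability genes, 8 were tested. The fatty acid receptor Ffar4 rose (39.4 ± 7.10 against 4.15 ± 1.42 CPM) and Slc5a1, the sodium-glucose transporter that enterocytes express as well, fell (157 ± 28.4 against 2034 ± 1302, SD, n = 2 each). Of the markers of other cells in the same comparison, 6 of 8 Paneth genes, 1 of 7 goblet genes, 1 of 5 stem cell genes (Igfbp4) and 1 of 2 stromal genes tested (Vim) rose, and 7 of 8 enterocyte genes fell. Vim was the only 1 of the 6 stromal genes with a count in Reg4-positive cells. Col3a1, also tested, was at 0 there and was not called (log2 fold change -5.95). Neither the 2 tuft genes nor the 2 enteric neuron and glia genes tested were called by edgeR.

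Lgr5-positive organoid cells held almost none of the 5 hormones. Sct was counted in 2 of 74 wells, with 3 counts in all, and Cck, Gcg, Pyy and Nts were at 0, which allows each up to 3.31 CPM. Against whole organoids, edgeR called 382 of 10522 genes (3.63%), 69 higher (0.656%) and 313 lower (2.97%), and none of the 4 hormones tested was among them. Cck was at 0 against 6.82 ± 9.64 CPM (adjusted p = 0.314) and Sct at 3.31 against 11.0 ± 8.22 (log2 fold change -2.06, SE 0.97, adjusted p = 0.275). The spread of the Lgr5-positive group, with 1 library, was taken from the other 2 organoid groups. Mouse, genotype and culture also differed between this group and whole organoids, and cannot be told apart from the sort. The whole organoid replicates were unlike, with 39 counts of Cck and 48 of Sct in replicate 1, and 0 and 8 in replicate 2. The 5 hormones summed to 5.15 CPM in whole organoid replicate 2, against 3.31 in the Lgr5-positive library. Near absence was thus not particular to Lgr5-positive cells.

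YFP and Lgr5-EGFP cells of the intestine compare stem cells and their progeny, collected 5 days after labelling, with a sort for Lgr5. Of 9065 genes tested, 2330 were called (25.7%): 1332 rose (14.7%) and 998 fell (11.0%) in YFP cells, and no hormone of the 5 was called. Cck stood at 35.9 ± 54.8 CPM on 5 YFP plates and 10.3 ± 14.6 on 2 Lgr5-EGFP plates (log2 fold change 2.10, SE 1.16, edgeR adjusted p = 0.210). Sct stood at 39.1 ± 27.5 and 64.8 ± 12.4 (log2 fold change -0.21, SE 0.41, adjusted p = 0.758). Gcg, Pyy and Nts, each counted on 1 plate, were not tested after the filter on low counts. In settings that did test them, edgeR called Gcg and Pyy lower in 3 of 3 and Nts higher in 1 of 4, each from that 1 plate. The share of wells with any of the 5 was 13.8%, 20.5%, 6.76%, 11.4% and 23.5% on the YFP plates and 9.33% and 32.1% on the Lgr5-EGFP plates. These overlapped (two-sided exact permutation test, p = 0.571), and with wells thinned to 1500 counts the means were 5.47% and 4.24%, in the opposite order.

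In the same comparison Gip and Sst, both other gut hormones with 0 counts in Lgr5-EGFP cells, were called higher in YFP cells by edgeR, at 248 ± 377 and 266 ± 334 CPM (SD, n = 5, adjusted p = 0.0413 and 0.0250). None of the 4 granin and processing genes tested passed. Of the 8 transcription factors tested, Neurog3 rose and Sox4 and Foxa1 fell. Of 3 receptor list genes tested, Dpp4 rose and Npy1r, a receptor for peptide YY, fell (8.96 ± 3.28 against 32.1 ± 7.95 CPM, adjusted p = 0.0136). Of the cell type markers, 6 of 8 Paneth, 3 of 7 goblet and 8 of 8 enterocyte genes rose and 2 of 5 stem cell genes fell.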

How the data were processed

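BWA 0.6.2-r126 and the builds mm10 and GRCm38 are named in the submitters' processing notes. The authors deposited estimated counts per gene and well, corrected for random barcodes used more than once, which were rounded to whole numbers here. Spike-in RNAs (92) were left out. Wells under 1500 counts were dropped, and kept wells were summed per replicate and tested with edgeR 4.0.16 (quasi-likelihood, TMM, filterByExpr, false discovery rate 0.05) in R 4.3.3, after a test on simulated data, with DESeq2 1.42.0 as an alternative. All plates share 96 well barcodes. No doublet caller was run. The members and lists were chosen with earlier results of these data known. The text names the 5 hormones, Tac1, Tph1, Reg4, Lgr5, the 5 genes most correlated with each hormone, members of the lists that passed, and genes of single rich wells, chosen after their values were seen. A result that these rules name is not reported here. The Lgr5-positive organoid table was matched by its file name, and 192 columns in 2 tables that matched no sample were not used.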

Additional observations from a re-analysis of the deposited data

Results flagged for a closer look

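YFP plate 5 stood apart from the other 4 YFP plates in 3 of 10 sets of plate values checked. The rule marks about 1 in 20 sets of normally distributed values by chance, a rate that does not hold for values mostly at 0. Nts was counted on plate 5 alone, so its sets were marked by construction. Sets of the same gene are not independent either, so no conclusion about chance is drawn from the 3 sets. Cck stood there at 131 CPM, against 0 to 33.5 on the other plates. Nts stood at 267 CPM and was counted in 10.3% of wells, against 0 on the other plates. A single well, number 77, held 92.7% of that plate's Cck counts and 95.8% of its Nts counts.

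Hormone counts were also found in wells left out for low depth. In Reg4-positive replicate 2, where 111 wells were left out, these wells held 177 counts of Cck, 16 of Sct and 4 of Nts, each above the 3 counts that a count of 0 allows. Well 79 of plate 2, with 1325 counts in total, held 166 of the Cck counts and 9 of the Sct counts. With no minimum per well, the log2 fold change of Cck in Reg4-positive against whole organoids was 6.36 (edgeR adjusted p = 0.016).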

How the results depend on the processing

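Reg4-positive against whole organoids gave 680 genes called, 1910 in 1 fit over all 5 groups, 1716 with no filter on low counts, 1128 with plates as units (50.4% higher, against 37.1%), 224 higher and 248 lower without wells above 100000 counts, and 209 (without Reg4-positive replicate 1) to 933 with a replicate left out. Lgr5-positive against whole organoids gave 382, and 1738, 1372 and 247 under those settings, 237 with thinned wells, 143 without wells above 100000 counts, 384 without wells 49 to 96 of plate 4 of whole organoid replicate 2, and 561 to 837 with a whole organoid replicate left out. YFP against Lgr5-EGFP gave 2330, 567 with thinned wells and 1104 to 2446 with a plate left out. Cck in Reg4-positive cells was 6.36 (log2) with DESeq2 and 1.89 without the wells with at least 100 counts, and 5.36 to 12.31 with a replicate left out (12.31 against whole organoid replicate 2, which has 0 counts). Sct was 2.60 at a minimum of 3000 counts per well (adjusted p = 0.060) and 2.57 to 4.38 with a replicate left out. Gcg was no longer called in 1 fit over all groups (8.18), with DESeq2 (8.64), at the minimum of 3000 (8.20) and without wells above 100000 counts (9.29), and ran from 7.68 to 9.67 with a replicate left out. Nts was called with thinned wells (9.69), no filter (10.43) and plates as units (9.03), and ran from 10.05 to 11.59 with a replicate left out. In Lgr5-positive organoids, Cck was called with no filter (-6.52) and was -7.28 to 0 with a whole organoid replicate left out. There Sct ran from -2.61 to -0.79, Tac1 from -6.38 to 1.44 and Tph1 from -5.11 to 4.64, the last 2 turning without replicate 1. In YFP cells, Cck was called with no filter (2.07), and Sct ran from -0.65 to 0.043 with a plate left out, turning without YFP plate 3. Gcg and Pyy, tested in 3 settings, were called lower in each (-10.97 to -10.14 and -10.32 to -9.51), and Nts, tested in 4, was called higher with no filter (8.53) and not in the other 3 (8.31 to 8.89). The difference in share of wells turned from -5.54 to 1.23 points with thinned wells and ran from -16.9 to 5.86 with a plate left out (5.86 without Lgr5-EGFP plate 2). In intestinal wells r of Crybb1 with Nts was -0.0035 and of Etv1 -0.0050. The causes were not tested. With the replicate number as a block, Reg4-positive organoids gave 418 genes called, Nts passed (9.90, adjusted p = 0.0171), Cck passed in YFP cells (1.19, adjusted p = 0.0489), Sct there was 0.12 and Gcg in Lgr5-positive organoids 2.47. Same-numbered samples correlated at -0.09, 0.02 and -0.05, so the numbers were not read as pairs. Wells 49 to 96 of YFP plate 4 were not analysed here, so that alternative was not run. Without wells above 100000 counts, chosen for levels after seeing the data, Cck in Reg4-positive replicate 2 moved from 594 to 1156 CPM and Sct from 105 to 202. Most wells with 1 of the 5 genes held 1 to 3 counts.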
